A study of Mus musculus with 21 samples.

Results

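The Schlafen family was examined in the neocortex of rNLS8 mice, a model of amyotrophic lateral sclerosis. Its members were the rows of the deposited count table with the symbols Slfn1, Slfn2, Slfn3, Slfn4, Slfn5, Slfn8 and Slfn9, which are 7 of 48474 rows. The rule named these symbols and used no measured value, but the members and the gene lists below were chosen with earlier results of these data known. Their shares beside those of all genes are therefore descriptions. Bulk RNAseq covered 21 mice, namely 10 rNLS8 mice, labelled TG, and 11 littermates labelled WT. The series text describes the littermates as monogenic, so each may carry 1 of the pair of transgenes, and which of them is not given in the sources used here. They are called controls below. rNLS8 mice carry NEFH-tTA together with tetO-hTDP-43ΔNLS, so human TDP-43 without its nuclear localization signal is made mainly in neurons, where the neurofilament heavy chain promoter is active. All 21 mice, controls included, received 350 µg of a non-targeting antisense oligonucleotide (ASO) in 10 µL into a cerebral ventricle at 17 to 19 weeks of age. All were fed doxycycline at 200 mg/kg of diet, which keeps the transgene off, until 2 weeks after the injection, and tissue was taken after 3 weeks without it. The labels name 2 batches, which the series text calls independent cohorts. Batch A held 4 control and 3 rNLS8 mice, and batch B held 7 and 7. The line had been backcrossed to C57BL/6J. The labels and the methods give cortex as the tissue, while a legend of the study names the hippocampus for rNLS8 mice, and the labels were followed here. The study states that naive rNLS8 mice were not split by sex for analysis, and the labels do not say which mice were male or female.

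Schlafen genes encode cytosolic and nuclear proteins that share an N-terminal Schlafen core, and several of them bind or cleave tRNA. The family was described in developing thymocytes, and many are induced by type I interferon, which acts on interferon-stimulated response elements (ISREs) in promoters. By protein length, Slfn1 and Slfn2 form group I, Slfn3 and Slfn4 form group II, and the long proteins Slfn5, Slfn8 and Slfn9, which also carry a helicase-like domain, form group III. They are best known from immune cells.

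The members lie together on chromosome 11 of GRCm38, in a cluster of 344.4 kb that spans the Schlafen genes from Slfn5os to Slfn14. In the GENCODE vM21 annotation of this build, the group III members come first along the chromosome, with Slfn5 at chr11:82951349-82964840 on the plus strand and Slfn9 at chr11:82978390-82991830 and Slfn8 at chr11:83002158-83020810 on the minus strand. The group I genes follow on the plus strand, Slfn2 at chr11:83065112-83070678 and Slfn1 at chr11:83116849-83122670. The group II genes Slfn4 at chr11:83175186-83190216 and Slfn3 at chr11:83191330-83215154 lie next to each other on the same strand. Counts cover whole genes, so exons and splice forms were not separated. In RefSeq for GRCm38.p6, all 7 members had a promoter window of 250 bases before and 50 after a transcript start. The bases upstream of the start are printed for Slfn8, Slfn9 and Slfn5, the members whose windows held an ISRE motif, and for Slfn2, which rose in rNLS8 mice without one. Each sequence reads 5′ to 3′ on the strand of the gene, and capitals mark the ISRE match.
Slfn8 (chr11:83020811-83021060, minus strand): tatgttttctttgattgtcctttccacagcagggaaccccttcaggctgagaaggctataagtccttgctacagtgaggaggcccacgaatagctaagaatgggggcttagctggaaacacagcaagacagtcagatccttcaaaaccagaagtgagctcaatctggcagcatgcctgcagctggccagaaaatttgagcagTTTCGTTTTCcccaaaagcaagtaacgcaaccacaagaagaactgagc
Slfn9 (chr11:82991831-82992080, minus strand): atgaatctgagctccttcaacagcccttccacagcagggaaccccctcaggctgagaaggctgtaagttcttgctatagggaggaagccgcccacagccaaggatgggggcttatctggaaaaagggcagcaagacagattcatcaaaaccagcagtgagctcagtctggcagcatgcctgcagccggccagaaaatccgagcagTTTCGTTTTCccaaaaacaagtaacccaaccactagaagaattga
Slfn5 (chr11:82951852-82952101, plus strand): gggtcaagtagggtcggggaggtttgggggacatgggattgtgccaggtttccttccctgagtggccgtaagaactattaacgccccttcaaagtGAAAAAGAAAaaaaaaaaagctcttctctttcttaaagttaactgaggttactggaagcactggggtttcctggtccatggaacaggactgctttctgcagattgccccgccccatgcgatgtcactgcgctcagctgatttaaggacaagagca
Slfn2 (chr11:83064862-83065111, plus strand): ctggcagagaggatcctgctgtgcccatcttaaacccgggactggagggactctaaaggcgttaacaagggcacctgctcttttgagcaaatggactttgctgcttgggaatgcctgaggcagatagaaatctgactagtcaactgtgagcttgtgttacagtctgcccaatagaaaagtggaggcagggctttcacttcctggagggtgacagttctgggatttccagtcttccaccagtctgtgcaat
The ISRE motif searched was GAAA, any 2 bases and GAAA, on both strands. With the transcript start at 0, the match began at -48 in Slfn8, at -45 in Slfn9 and at -155 in Slfn5. RefSeq has 2 starts for Slfn8, and from the other start, whose window lies further downstream, the same match began at -136. The match was TTTCGTTTTC in both Slfn8 and Slfn9, which is the motif on the opposite strand, and GAAAAAGAAA in Slfn5. Among all 32851 RefSeq windows of this length, 3.44% held the motif, which is 3.99% of genes, against 3 of the 7 members. The only start with a window for Slfn5 lies inside the gene, which begins at chr11:82951349 in both GENCODE and RefSeq. The bases before that outer start were not searched. Slfn8 and Slfn9 windows were identical at 80.5% of aligned positions, and the next closest pair of members, Slfn1 and Slfn5, at 48.8%. A match describes letters in the window and shows no binding.

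The total count of a library was between 20700912 and 22263809. Counts were normalized by TMM and are given as normalized counts, that is, counts scaled to a library of mean effective size. At an adjusted p-value under 0.05 in edgeR's quasi-likelihood test with batch as covariate, 44.7% of the 18248 genes tested differed between genotypes, and 23.0% were higher in rNLS8 mice. The mouse gene Tardbp, whose rows may also take reads of the human transgene, had 4109 ± 951 normalized counts (SD, n = 10) in rNLS8 mice and 2574 ± 207 (n = 11) in controls. The neuronal marker Snap25 was abundant in this tissue, labelled neocortex, at 47235 normalized counts in controls.

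In rNLS8 mice, 4 of the 7 Schlafen genes rose, namely Slfn8, Slfn9, Slfn2 and Slfn5, against 23.0% of all genes tested, and none fell. Slfn8 rose 4.44-fold, Slfn9 3.62-fold, Slfn2 2.60-fold and Slfn5 1.54-fold. Slfn3 had more counts in rNLS8 mice but did not pass the test, and Slfn1 and Slfn4 had too few counts to be tested with all genes. Thus 5 of 7 members passed the filter on low counts. A rise of more than 1 on the log2 scale was found for 3 members, against 1.38% of all genes tested. In 3 members every rNLS8 mouse was above every control, which was the case for 3.85% of all genes tested. As the tissue was bulk neocortex, more cells that express a gene and more RNA per cell cannot be told apart.

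**Figure D1:**
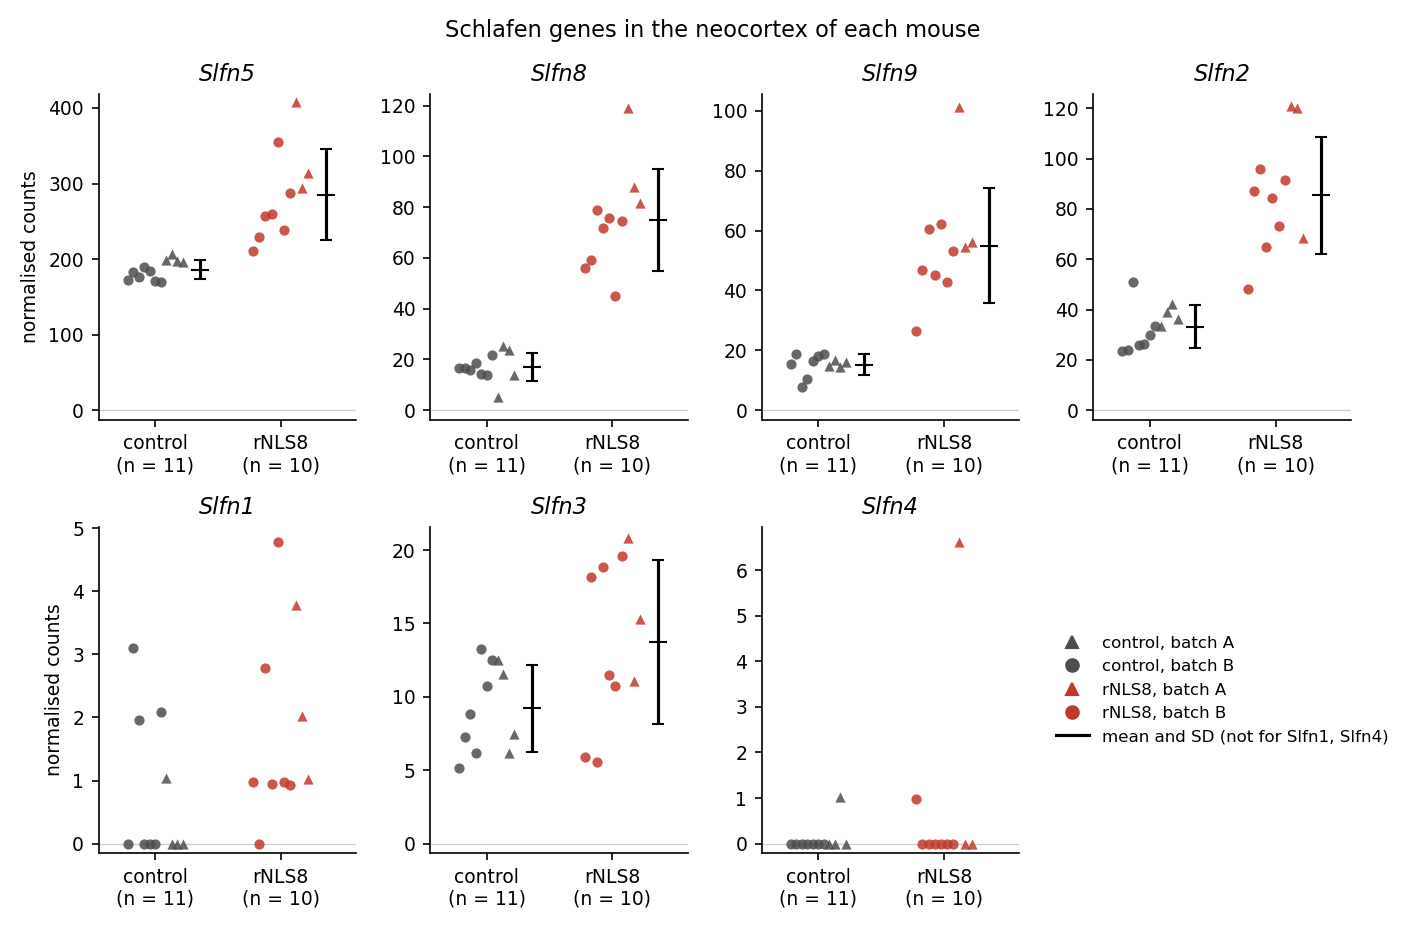
Normalized counts of the 7 Schlafen genes in each mouse, with controls in grey and rNLS8 mice in red, triangles for batch A and circles for batch B, and the mean and SD beside the points where the gene was tested. For Slfn5, Slfn8 and Slfn9 all 10 rNLS8 mice were above the highest control, for Slfn2 it was 9 of 10 and for Slfn3 5 of 10.

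Among the group III genes, Slfn8 changed most. It had between 5.22 and 25.3 normalized counts in controls, with a median of 16.5, and between 44.9 and 119 in rNLS8 mice, with a median of 75.0. The lowest rNLS8 mouse was thus well above the highest control, and the groups did not overlap. In edgeR's test this was 2.15 ± 0.172 (SE) on the log2 scale at an adjusted p of 4.61e-10, which ranked 47 among the genes tested, and the mean rose from 16.8 ± 5.54 (SD, n = 11) to 74.9 ± 20.3 (n = 10).

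Slfn9, the neighbour of Slfn8 on the same strand, had between 7.84 and 18.8 normalized counts in controls (median 15.9) and between 26.5 and 101 in rNLS8 mice (median 53.8). Again all 10 rNLS8 mice were above the highest control, and a single mouse, rNLS8 mouse 8 of batch A, stood well above the others. Slfn9 changed by 1.85 ± 0.175 on the log2 scale (SE, edgeR adjusted p = 7.00e-09), with means of 15.2 ± 3.43 (SD, n = 11) in controls and 54.9 ± 19.2 (n = 10) in rNLS8 mice.

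Slfn5, a nuclear member of group III, was the most abundant member in counts. Controls were tightly grouped between 170 and 206 normalized counts (median 184), while rNLS8 mice ranged from 211 to 407 (median 273). The groups did not overlap, with the lowest rNLS8 mouse just above the highest control. On the log2 scale the rise was 0.63 ± 0.0781 (SE, edgeR adjusted p = 4.91e-07), and the mean rose from 186 ± 12.7 (SD, n = 11) to 285 ± 60.5 (n = 10). Slfn5os, the antisense transcript that overlaps Slfn5, had only 28 counts over all mice, and the strand setting of the counting is not given in the sources used here.

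In group I, Slfn2 is the member needed to keep T cells and monocytes quiescent, and it protects tRNA from cleavage by stress-activated ribonucleases. It ranged from 23.7 to 50.9 normalized counts in controls (median 33.4) and from 48.0 to 121 in rNLS8 mice (median 85.6). Only rNLS8 mouse 1 and control mouse 3, both of batch B, overlapped, at 48.0 and 50.9 normalized counts. This amounted to 1.38 on the log2 scale, ± 0.145 (SE, edgeR adjusted p = 3.89e-08), with means of 33.2 ± 8.52 (SD, n = 11) and 85.4 ± 23.2 (n = 10).

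Slfn1, which slows the growth of thymocytes when overexpressed, was near the limit of detection. It had 27 counts over all 21 mice, of which 19 were in rNLS8 mice and 8 in controls. The 10 rNLS8 mice had 1, 0, 3, 1, 5, 1, 1, 4, 2 and 1 counts in the order of their numbers, and 9 of them thus had at least 1. Controls 2, 3, 7 and 8 had 3, 2, 2 and 1 counts, and the other 7 controls had 0, which allows up to 3 counts or between 0.139 and 0.145 CPM (counts scaled to the library total) in a library. The mean was 0.0341 CPM in controls and 0.0879 CPM in rNLS8 mice, a ratio of 2.56 with a 95% interval from 1.07 to 6.77 that covers counting error only. An exact permutation test of the means within batch, two-sided over 120120 arrangements, gave p = 0.0706, so the difference missed the threshold against the spread between mice.

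In group II, Slfn3, known from T cells and from differentiating gut epithelium, ranged from 5.15 to 13.2 normalized counts in controls (median 8.82) and from 5.58 to 20.8 in rNLS8 mice (median 13.4). rNLS8 mice were split, with 5 above the highest control and 5 among the controls. Slfn3 differed by 0.58 ± 0.239 (SE) on the log2 scale, and the adjusted p of 0.0519 (edgeR) missed the threshold. This call depends on the processing: scaling by library size alone gave an adjusted p of 0.0271, adding the further rows of the same symbol gave 0.0328, and DESeq2 with batch gave 0.0693.

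Slfn4, known from myeloid cells, had 9 counts over all mice. Of these, 7 came from rNLS8 mouse 8, 1 from rNLS8 mouse 1 and 1 from control mouse 10, and the other 18 mice had 0. The exact permutation test within batch gave p = 0.429. The ratio of 8.64, with a counting interval from 1.16 to 383, rests on mouse 8, without which 1 count remained in rNLS8 mice.

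Levels of different genes can be compared only per length. Per kb of exon, the normalized counts in controls were highest for Slfn5 at 29.4, followed by Slfn2 at 19.9, Slfn8 at 4.12, Slfn3 at 2.71, Slfn9 at 2.55, Slfn1 at 0.40 and Slfn4 at 0.024. The ranges of Slfn5 and Slfn2 overlapped between mice, as did those of Slfn8, Slfn3 and Slfn9. In rNLS8 mice, Slfn2 was highest at 51.3 per kb, with Slfn5 at 45.1, Slfn8 at 18.3 and Slfn9 at 9.20. Thus Slfn2 and Slfn5, the most abundant in both genotypes, again had overlapping ranges, and Slfn3 had 4.03 per kb. The range of Slfn9 overlapped those of Slfn8 and Slfn3, that of Slfn8 overlapped Slfn2 only between 28.8 and 29.1 per kb, and Slfn8 stayed below Slfn5.

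The controls of the batches differed for Slfn5, with 197 to 206 normalized counts in batch A and 170 to 190 in batch B, so genotypes were also compared within each batch. In batch A, rNLS8 mice had 295 to 407 normalized counts of Slfn5, 81.6 to 119 of Slfn8, 54.5 to 101 of Slfn9 and 68.4 to 121 of Slfn2. The controls of batch A had 5.22 to 25.3 of Slfn8, 14.4 to 16.9 of Slfn9 and 33.4 to 42.1 of Slfn2, so none of these 4 genes overlapped between genotypes there. How many of all genes did not overlap within a batch was not counted. Groups as small as the 3 and 4 mice of batch A separate more readily by chance than larger ones. In batch B, rNLS8 mice had 211 to 355 of Slfn5, 44.9 to 79.0 of Slfn8, 26.5 to 62.1 of Slfn9 and 48.0 to 95.7 of Slfn2. The controls of batch B had 13.9 to 21.9 of Slfn8, 7.84 to 18.8 of Slfn9 and 23.7 to 50.9 of Slfn2, and only Slfn2 overlapped. For Slfn3 the genotypes overlapped in both batches, with 6.16 to 12.5 in controls and 11.1 to 20.8 in rNLS8 mice of batch A, and 5.15 to 13.2 and 5.58 to 19.6 in batch B.

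Within batch A alone, 4 members were called higher, against 6.99% of the 18580 genes tested there. Within batch B alone the same 4 members were called, against 19.3% of 18220 genes. In batch A the log2 fold change was 2.52 for Slfn8, 2.21 for Slfn9, 1.48 for Slfn2, 0.78 for Slfn5 and 0.76 for Slfn3. In batch B it was 1.96 for Slfn8, 1.67 for Slfn9, 1.33 for Slfn2, 0.55 for Slfn5 and 0.49 for Slfn3. All 5 values were larger in batch A, but none of these differences passed the test. The difference between batches was 0.53 ± 0.361 (SE) for Slfn8, 0.51 (0.368) for Slfn9, 0.11 (0.315) for Slfn2, 0.20 (0.164) for Slfn5 and 0.24 (0.515) for Slfn3, with adjusted p-values of 0.877 or more in edgeR's test of the interaction. Leaving out rNLS8 mouse 8 lowered the difference to 0.16 for Slfn9 and to 0.047 for Slfn5 and turned its sign for Slfn2 (-0.020) and Slfn3 (-0.016). For Slfn2 the sign also turned without rNLS8 mouse 9 (-0.011) or control 3 (-0.062). That test called 0.0% of all genes, with 1030 of the 18248 at an unadjusted p under 0.05.

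**Figure D2:**
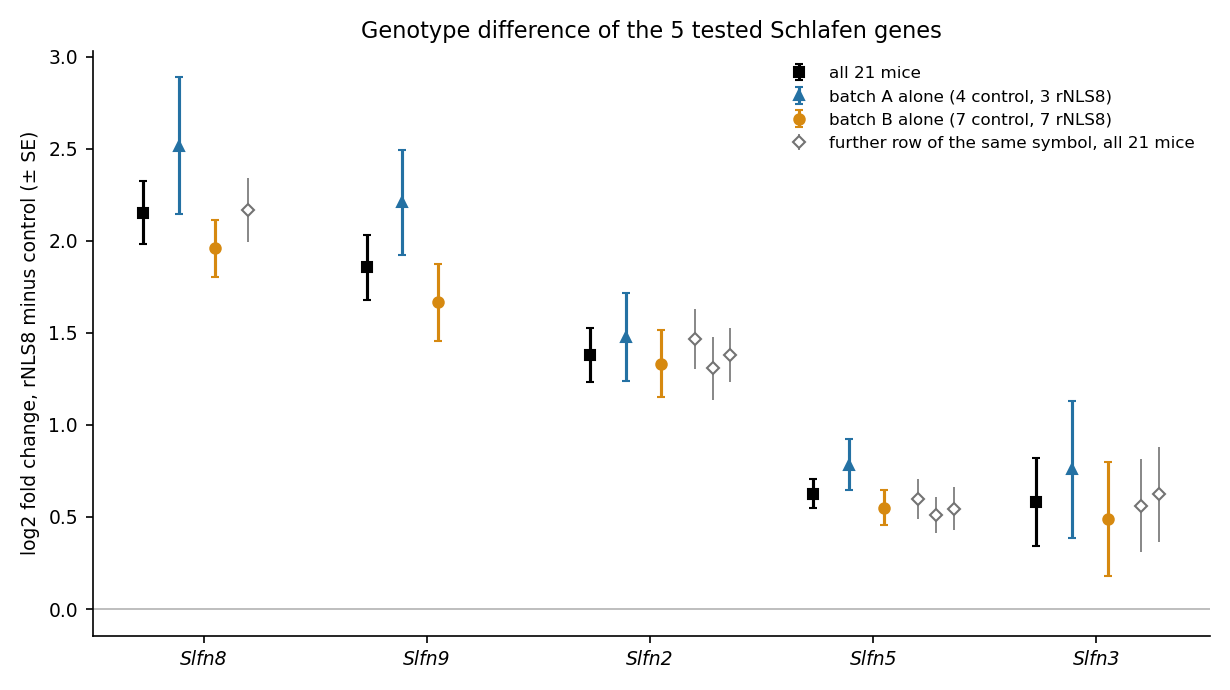
Log2 fold change of rNLS8 against control mice with its standard error for the 5 tested members, over all 21 mice (squares), in batch A (triangles) and in batch B (circles), with further rows of the same symbol as open diamonds. All points lie above 0, the 4 called members keep the order Slfn8, Slfn9, Slfn2, Slfn5 in each batch, and over all mice the error bar of Slfn3 is the widest.

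The rNLS8 mice differed among themselves. Mouse 8 of batch A had the highest value of all 5 tested members, with 119 normalized counts of Slfn8, 101 of Slfn9, 121 of Slfn2, 407 of Slfn5 and 20.8 of Slfn3. At the other end, mouse 1 of batch B was lowest for Slfn9, Slfn2 and Slfn5, at 26.5, 48.0 and 211 normalized counts, and its mean rank over the 5 genes was 9.6 of 10. Mouse 9 of batch A ranked 2 for Slfn2 and Slfn8 but 7 for Slfn3. Leaving out mouse 8 alone, or mice 8 and 9 together, changed none of the 4 calls. Without both, the log2 fold change was 2.03 for Slfn8, 1.71 for Slfn9, 1.25 for Slfn2 and 0.58 for Slfn5.

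**Figure D3:**
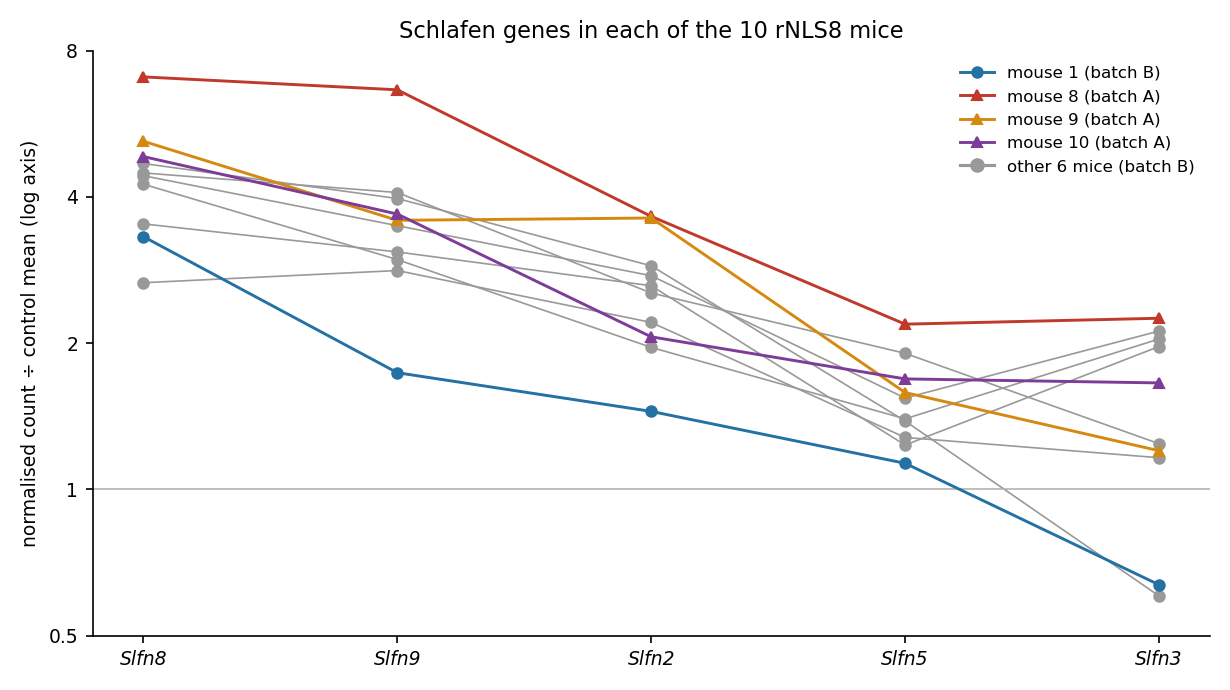
Normalized count of each tested member in each of the 10 rNLS8 mice, divided by the control mean and drawn on a log axis, with a line per mouse. Mouse 8 (red) is at the top for all 5 genes, and mouse 1 (blue) is at the bottom for Slfn9, Slfn2 and Slfn5.

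Each member has 3 further rows in the table, written with a suffix (Slfn8-2, Slfn8-3, Slfn8-4), and what sets them apart is not given in the sources used here. Slfn1-3 equalled Slfn1 in 21 of 21 libraries, and Slfn8-4 had 100.3% of the counts of Slfn8 and equalled it in 13 libraries. Slfn2-4 held 94.9% of the counts of Slfn2, while the further rows of Slfn5 held 30.6% to 43.6%. Such rows may hold the same reads, so they are no independent support for the members. Of the 21 further rows, 9 were tested and 7 were higher in rNLS8 mice, which left out Slfn3-3 (adjusted p = 0.0761, edgeR) and Slfn3-4 (0.0511). The log2 fold change of Slfn8-4 was 2.17, those of the Slfn2 rows ranged from 1.31 to 1.46 and those of the Slfn5 rows from 0.51 to 0.60.

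Slfn8 and Slfn9 are similar enough for reads to be shared. Of all stretches of 100 bases, the read length, in the annotated transcripts, 50 were identical between both genes, which is 1.17% of those of Slfn8 and 0.84% of those of Slfn9. Slfn10-ps, a transcribed pseudogene between Slfn8 and Slfn2, shared 105 such stretches with Slfn8 and 181 with Slfn9. Reads from these stretches could be assigned to either gene, so the split between Slfn8 and Slfn9 is uncertain for this small part of their sequence. Stretches that differ by a few bases were not counted, and how many reads were shared was not tested. Slfn2 and Slfn4 shared 2 stretches, and the other pairs of members shared none.

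The remaining Schlafen genes of the table were too weak to be tested with all genes. Slfn10-ps had 53 counts over all mice, with means of 1.96 normalized counts in controls and 3.06 in rNLS8 mice. Slfn14, the group III gene of blood cells, had 12 counts and Slfnl1, which lies outside the cluster, had 10. Whether these genes differed between the genotypes was not tested.

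The genes around the cluster showed no such rise. Of the 5 nearest genes on either side that do not overlap the cluster, 7 were tested, with a median log2 fold change of -0.04. In edgeR's test 0 were higher and 1 was lower, against 23.0% and 21.7% of all genes tested. With so few genes, these counts do not set the neighbours apart from all genes. At an unadjusted p under 0.05, 1 of the 7 neighbours (Nle1) was higher, and DESeq2 with batch called 0 higher. The gene that fell was Ap2b1, a subunit of the clathrin adaptor, with a log2 fold change of -0.19 ± 0.0532 (SE, edgeR adjusted p = 0.00567), and this call was lost with scaling by library size alone and in batch A alone. Unc45b, which overlaps the edge of the cluster at Slfn5os and was not counted among these genes, had a log2 fold change of -0.10 (edgeR adjusted p = 0.671). Between Slfn8 and Slfn10-ps, the pseudogene Gm11425, named after its value was seen, rose from 41.9 to 66.6 normalized counts, a log2 fold change of 0.69 ± 0.129 (SE, edgeR adjusted p = 0.000117).

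**Figure D4:**
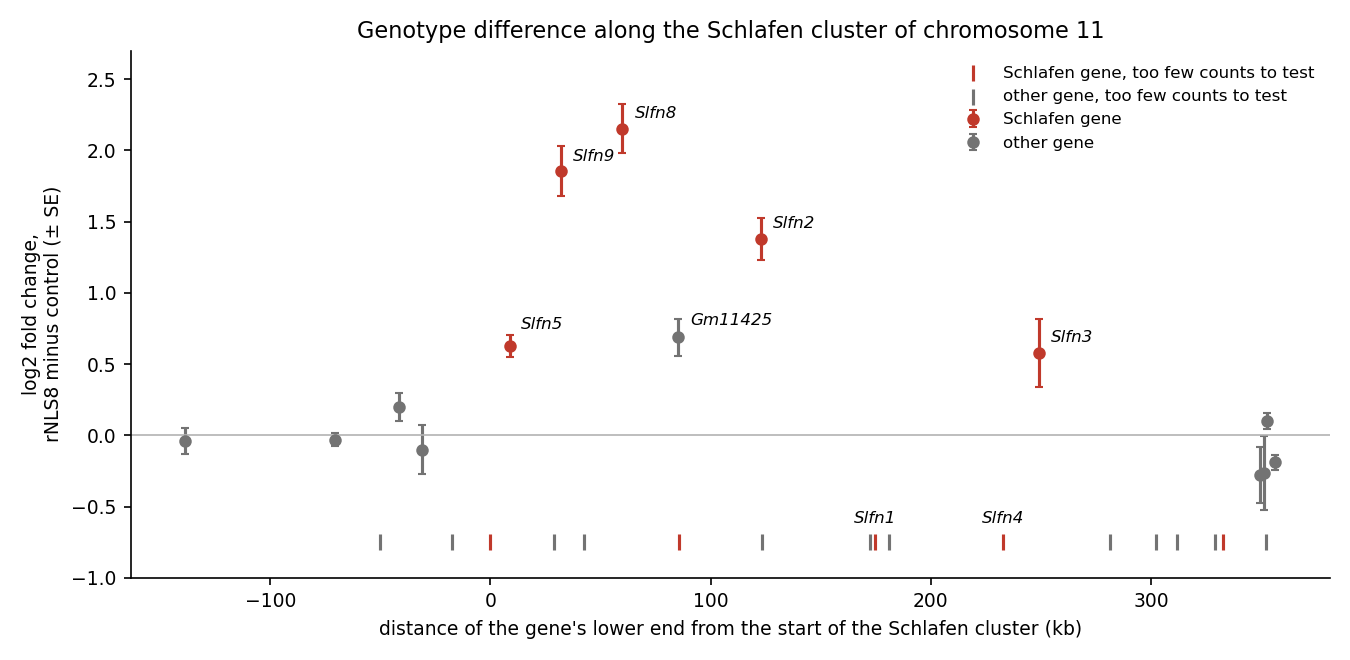
Log2 fold change with its standard error against the distance of each gene from the start of the Schlafen cluster, with Schlafen genes in red, other genes in grey and genes with too few counts as ticks near the lower edge. Slfn5, Slfn9, Slfn8, Slfn2 and Slfn3 lie between 0.58 and 2.15, and the tested neighbours outside the cluster lie between -0.28 and 0.20.

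The members were set beside the interferon pathway, in which they are known targets. Of 30 interferon-stimulated genes listed, 29 were tested and 29 were higher in rNLS8 mice, against 23.0% of all genes tested, with a median log2 fold change of 2.26. The 5 tested Schlafen genes had a median of 1.38, and all genes tested had a median of -0.00067. Zbp1, a sensor of Z-form nucleic acid, had a log2 fold change of 3.49 ± 0.299 (SE, edgeR adjusted p = 1.48e-09) and Mx1, an antiviral GTPase, one of 3.23 ± 0.309 (SE). Cmpk2, a mitochondrial nucleotide kinase, rose least at 0.49 ± 0.0531 (SE). Slfn8 and Slfn9 were thus inside the range of this list, and Slfn5 and Slfn3 near its lower end.

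**Figure D5:**
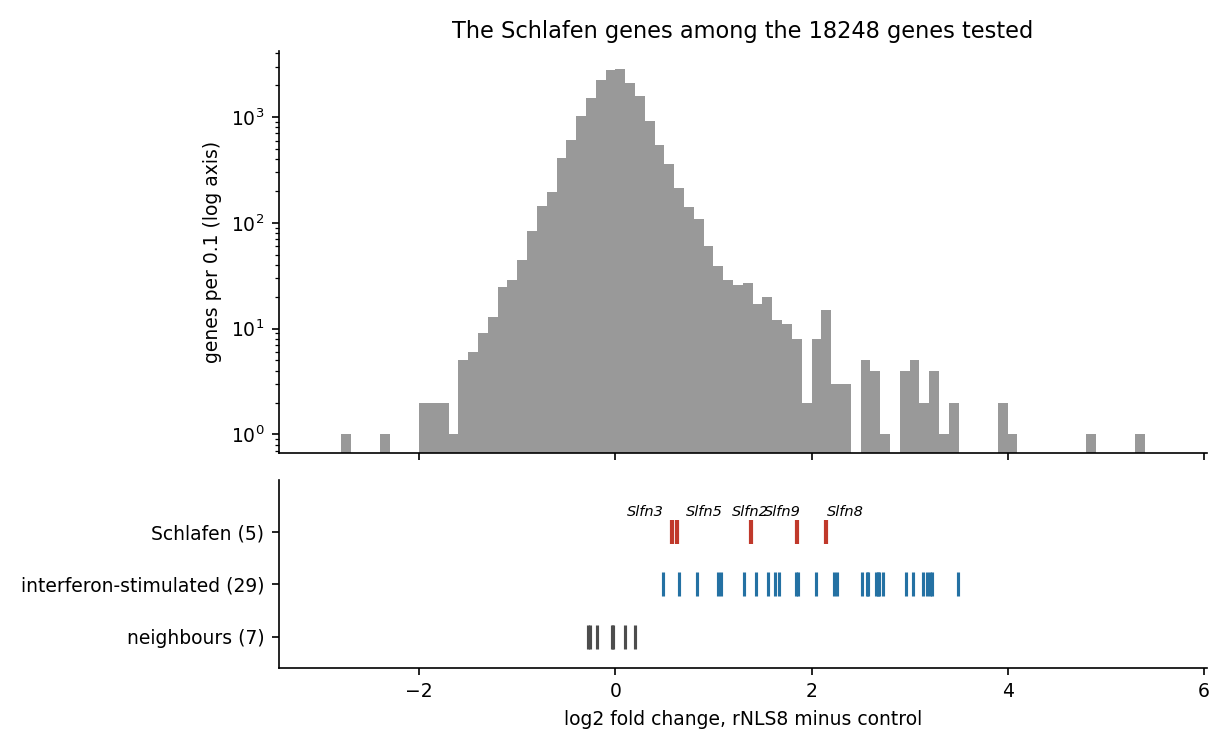
Distribution of the log2 fold change over the 18248 genes tested on a log axis of gene number, above ticks for the 5 Schlafen genes, 29 interferon-stimulated genes and 7 neighbours of the cluster. The Schlafen genes span 0.58 to 2.15, the interferon-stimulated genes 0.49 to 3.49 and the neighbours -0.28 to 0.20.

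The ligands themselves were hardly seen. Of 8 interferon genes, 5 (Ifna1, Ifna2, Ifna4, Ifna5 and Ifnl2) had 0 counts in all mice, Ifnb1 and Ifnl3 had 1 count and Ifng had 2. Among the receptor chains, 3 of 4 tested were higher in rNLS8 mice, against 23.0% of all genes tested. Ifngr2 had a log2 fold change of 0.78 ± 0.0463 (SE), Ifngr1 of 0.31 (0.054) and Ifnar2 of 0.26 (0.0561, named after its value was seen), and in batch A alone, with 7 mice, the Ifngr1 value was 0.40 and the call was lost (adjusted p = 0.0607, edgeR). Ifnar1, at -0.02 (adjusted p = 0.629, edgeR), was not called, and its sign turned with scaling by library size alone.

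Genes that cut, process or protect RNA and tRNA were listed because of the known role of Schlafen proteins. Of 7 tested, 4 were higher and none lower in rNLS8 mice, against 23.0% and 21.7% of all genes tested. Zc3hav1, an antiviral protein that binds CpG-rich RNA, had a log2 fold change of 0.74 ± 0.0937 (SE, edgeR adjusted p = 6.27e-07), and the endoribonuclease Zc3h12a had 0.62 (0.18, adjusted p = 0.00713), a call that was lost in batch A alone (0.96), in batch B alone (0.42) and without rNLS8 mice 8 and 9 (0.46). The others, named after their values were seen, were Elac2, which trims tRNA, at 0.34 and Rnh1, the inhibitor of angiogenin, at 0.19, whose call was lost in batch A alone. Dicer1, at 0.09 (edgeR adjusted p = 0.256), was not called, but it was with scaling by library size alone (0.17, adjusted p = 0.0387), without rNLS8 mouse 9 (0.14, 0.0252) and without mice 8 and 9 (0.14, 0.0499).

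Markers of the cell types in which Schlafen genes are known were examined as well. Of 12 microglia markers, 8 were higher and 1 was lower in rNLS8 mice, against 23.0% and 21.7% of all genes tested, which also hold for the lists below. C1qa of the complement had the largest log2 fold change at 0.62, followed by the receptor Trem2 at 0.59. The marker that fell was P2ry12, at -0.35 (named after its value was seen). Sall1 changed least at 0.03, and it was not called, nor were Cx3cr1 at 0.07 and Siglech at 0.13 (also named after their values were seen). The summed level of this list ranged from 9901 to 11575 normalized counts in controls and from 10792 to 16970 in rNLS8 mice, highest in mouse 8. All 12 were detected. Among T cell markers, the CD3 chains and Cd8a had few counts over all mice, with 9 of Cd3d, 16 of Cd3e, 17 of Cd3g and 23 of Cd8a, whereas Trbc2 had 3167, Cd4 2707, Lck 643 and Trbc1 359, and none of the 12 markers was at 0. Of these 4, which were the ones tested, Lck was higher at 0.64 and Cd4, which is also made by other brain cells, was lower at -1.24. Whether the counts of any of these 4 genes came from T cells was not tested. The summed level of the list ranged from 285 to 528 normalized counts in controls and from 215 to 397 in rNLS8 mice. Of 10 markers of infiltrating myeloid cells, 5 were tested and 0 were called by edgeR, 1 (Lyve1) had an unadjusted p under 0.05 and DESeq2 with batch called 0. The other 5 had too few counts to be tested with all genes and are named after their values were seen. Plac8 had 1.51 ± 1.63 normalized counts (SD, n = 11) in controls and 14.2 ± 8.32 (n = 10) in rNLS8 mice, and the groups overlapped only between 4.78 and 5.16. Ccr2 had 4.61 ± 1.89 and 8.47 ± 2.36, Chil3 0.57 ± 1.08 and 2.22 ± 1.49 and S100a8 5.66 ± 3.41 and 6.76 ± 4.76, while S100a9 had means of 6.54 and 6.90. The sum of the 10 markers ranged from 150 to 295 in controls and from 195 to 367 in rNLS8 mice. Neuronal markers fell in 5 of 10 cases, with Snap25 at -0.75 and Nrgn at -0.72, and 1 rose. DESeq2 with batch called all of these but Gad2. Among 8 astrocyte markers, 1 was higher, Gfap at 1.03, and 5 were lower, among them the glutamate transporter Slc1a2 at -0.32. Of 8 endothelial markers, Ly6c1 was higher at 0.25 and Flt1 lower at -0.17, a call that was lost with scaling by library size alone and within each batch alone. Of 8 oligodendrocyte markers 0 were called by edgeR, 0 had an unadjusted p under 0.05 and DESeq2 with batch called 0. The part of any of these cell types in the rise of the Schlafen genes was not tested.

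For each tested member, the genes most like it were taken by Pearson's r of log2 CPM over the 21 libraries after removal of the mean of each genotype and batch. These are descriptions, chosen as the highest of 18248 genes tested over few mice. Slfn2 was most like Ifi35 (r = 0.81, Spearman's rho = 0.78), Mrps18c and Mir692-2-2. Slfn5 was most like Zc3hav1 (r = 0.82, rho = 0.78), Col23a1 and Eif2ak2. Slfn8 was most like Six4, Esco1 and C330018D20Rik, Slfn9 most like Gadl1, Adamts1 and Ctss, and Slfn3 most like Epas1, Thbs1 and Dnajc12. No member was among the 3 genes most like another. In the 10 rNLS8 mice alone, none of these 15 genes was again among the 3 most like its member.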

How the data were processed

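RNA was taken from the neocortex of 21 mice, and poly-A libraries were sequenced at BGI with paired reads of 100 bases. According to the study, reads were aligned to GRCm38. The submitters' processing notes name HISAT, HISAT2, Bowtie, Bowtie2, RSEM and mm10, and the role of each, the annotation and the strand setting are not given in the sources used here. The authors deposited whole-number counts per gene symbol without normalization. Of 48474 rows, 13329 had no count and 2536 were further copies of a symbol that held 4.11% of all counts. These rows were kept.

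Counts were analyzed with edgeR 4.0.16 in R 4.3.3, with filterByExpr by genotype (minimum count 10, minimum total 15), TMM normalization, and glmQLFit and glmQLFTest with batch and genotype. P-values were two-sided and adjusted by Benjamini-Hochberg over all 18248 genes tested and called under 0.05. Each standard error is the size of the log2 change divided by the root of its F statistic. Genes with few counts were compared by exact permutation of CPM within batch. Positions of the members and exon lengths came from GENCODE vM21, and promoter windows and the positions of the neighbours from RefSeq for GRCm38.p6. Tests were checked on simulated counts. Alternatives were DESeq2 1.42.0 with and without batch, edgeR without batch, other scalings and filters, handling of the copy rows, each batch alone and leaving out each library. A filter by design matrix and leaving out rNLS8 mice 8 and 9 together were chosen after seeing the data.

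The genes named were the 7 members, all other Schlafen rows, the 3 genes most like each tested member, the 5 nearest neighbours on each side of the cluster, and, per list, the 2 largest and the 1 smallest change, with these cell type markers named where they passed the test. The members and the lists were chosen with earlier results of these data known. The labels name mice by number and give no litter, so p-values measure the spread between these mice, and reads carried no molecular identifiers.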

Additional observations from a re-analysis of the deposited data

Results flagged for a closer look

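Among the 10 rNLS8 mice, 6 of 38 rows examined had a mouse whose gap to its nearest neighbour was large against the whole range. The limit used is passed by about 1 in 20 groups by chance if values are normally distributed. It was applied to normalized counts without a log scale, for which this rate need not hold. The 38 rows also share the same 10 mice and include further rows of the same symbols. Whether 6 of 38 is more than chance therefore cannot be told. Of the members, Slfn9 alone had such a gap. Mouse 8 of batch A had 101 normalized counts of it and the next mouse 62.1, a gap of 0.522 of the range. The further row Slfn8-4 had a gap of 0.476, with 128 normalized counts in mouse 8 and 87.8 in the next. Mouse 8 also stood apart for Mx1, with 100.2 against 47.4 and a gap of 0.636, and for Gfap, with 12101 against 8337 and a gap of 0.468. Mouse 9 of batch A was lowest for Dicer1, with 723 against 1004 and a gap of 0.508, and highest for Nrgn, with 21879 against 14480 and a gap of 0.629. What sets these mice apart was not tested. The genotype effects of the members in both batches are given above, and none of their differences passed the test.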

How the results depend on the processing

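Slfn2, Slfn5, Slfn8 and Slfn9 kept their direction and their call under all alternatives in which they were tested, with log2 fold changes of 1.25 to 1.49, 0.55 to 0.78, 1.96 to 2.52 and 1.67 to 2.21. With at least 10 counts in every library, 2 members were tested and called, because the others fell below that filter. Batch A alone called 2195 genes in place of 8154. Slfn3 passed the threshold in edgeR with library-size scaling (0.66 on the log2 scale, adjusted p = 0.0271), without the copy rows (0.58, 0.04996) and with the copy rows added to the first row (0.63, 0.0328). Leaving out single libraries gave 0.49 to 0.67 for Slfn3, past the threshold in 6 of 21 fits, namely without rNLS8 mouse 1, 3 or 9 or control 5, 7 or 8. The cause was not tested. Scaling by library size only shifted the median of all genes by 0.08 and turned Ifnar1 to 0.054. Leaving out single libraries, the difference between batches ranged from -0.062 (without control 3) to 0.33 (without rNLS8 mouse 10) for Slfn2, from -0.016 (without rNLS8 mouse 8) to 0.44 (mouse 9) for Slfn3, from 0.047 (mouse 8) to 0.29 (mouse 9) for Slfn5, from 0.16 (mouse 8) to 0.67 (mouse 9) for Slfn9 and from 0.23 (without control 8) to 0.78 (control 9) for Slfn8, and was past the threshold in 0 of 21 fits for each. For each of Slfn2, Slfn3, Slfn5, Slfn8 and Slfn9, 0 of the 3 most similar genes remained in the 10 rNLS8 libraries alone, and 14 of 15 remained with a prior count of 0.5. For Slfn1, edgeR without a filter gave an adjusted p of 0.206 and permutation over all libraries 0.0789, and for Slfn4 0.0534 and 0.678. In batch A alone the calls of Ifnar2 (0.37), Rnh1 (0.25), Lck (0.59), Nrgn (-0.64), Slc1a2 (-0.33) and Flt1 (-0.27) were also lost. The shorter ISRE core matched in the same 3 members. No paired analysis was possible because the labels give no replicate numbers shared between the genotypes. Few counts limit the precision of the values of Slfn1, Slfn4 and the other Schlafen genes that were not tested with all genes.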

Other observations

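The summed level of the 30 interferon-stimulated genes ranged from 3150 to 3839 normalized counts in controls and from 6044 to 20180 in rNLS8 mice, highest in mouse 8, which was also the highest mouse for all 5 tested Schlafen genes. With the means of genotype and batch removed, the mean of this list over the 21 libraries had a Pearson's r of 0.71 (Spearman's rho 0.51) with Slfn2, 0.70 (0.64) with Slfn5, 0.45 (0.25) with Slfn9, 0.31 (0.49) with Slfn8 and 0.26 (0.087) with Slfn3. Without rNLS8 mouse 8 the r values were 0.71, 0.63, 0.34, 0.25 and 0.20. Within the 10 rNLS8 libraries, with batch means removed, the order was another, with an r of 0.89 for Slfn9, 0.82 for Slfn2, 0.75 for Slfn5, 0.67 for Slfn8 and 0.42 for Slfn3. In these 10 libraries the astrocyte markers were closer to Slfn5, at 0.78, and nearly as close to Slfn9, at 0.87. For Slfn3 the infiltrating myeloid markers were closest, at 0.59, and for Slfn2 and Slfn8 the interferon-stimulated genes were. Over the 21 libraries, too, some other lists were closer than the interferon-stimulated genes, or nearly as close. Slfn9 had an r of 0.65 (rho 0.64) with the astrocyte markers and of 0.65 (0.52) with the microglia markers, Slfn5 one of 0.66 (0.27) with the astrocyte markers, Slfn3 one of 0.48 (0.47) with the microglia markers and Slfn8 one of 0.35 (0.23) with the RNA and tRNA cleavage genes, while for Slfn2 the interferon-stimulated genes were the closest of the lists. These are descriptions without a test, and the 21 mice share the libraries in which both sides were measured.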
